A study of Homo sapiens with 12 samples.

Results

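Genes of fatty acid synthesis and desaturation were followed by RNA sequencing in LX-2, an established line of human hepatic stellate cells. They were chosen by symbol, as 10 of the 58735 genes in the count table: ACLY, ACSS2 and ME1, which supply carbon and reducing power, ACACA and FASN, which build palmitate, ELOVL6, SCD, FADS2 and FADS1, which elongate and desaturate, and SREBF1, their transcriptional regulator. All 10 passed the filter on low counts. The 12 libraries formed 4 groups of 3, all from wild-type LX-2 grown in serum-containing medium: untreated cells (con), cells given TGF-β1 at 5 ng/ml for 24 hours (TGFB), cells transfected with an siRNA against NAT10 (SiNAT10), and cells transfected with that siRNA and given the same TGF-β1 dose 48 hours later for 24 hours (SiNAT10_TGFB). NAT10 encodes the acetyltransferase that makes N4-acetylcytidine in RNA. No group with a control siRNA was among the samples, so each siRNA comparison holds transfection and knockdown together, and when SiNAT10 was harvested is not stated in the labels. Replicates are labelled as biological, but separate cultures are not mentioned, and each p-value therefore reflects only the spread among the libraries at hand. In bulk RNA, fewer cells that express a gene and less of its RNA per cell cannot be told apart.

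Cytosolic fatty acid synthesis starts from acetyl-CoA, which ATP citrate lyase (ACLY) makes from citrate and acetyl-CoA synthetase (ACSS2) from acetate. Acetyl-CoA carboxylase (ACACA) turns it into malonyl-CoA, fatty acid synthase (FASN) joins these units into palmitate with NADPH from malic enzyme (ME1) and other sources, ELOVL6 lengthens palmitate to stearate, and stearoyl-CoA desaturase (SCD) makes oleate. FADS2 and FADS1 are the desaturases of polyunsaturated fatty acids. Many of these genes are targets of SREBP-1, the product of SREBF1, a factor held in the endoplasmic reticulum that travels to the Golgi for cleavage when its escort SCAP is released from INSIG. Quiescent stellate cells store retinyl esters in lipid droplets, which they lose when they become activated.

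Promoter sequences were available for 9 of the 10 genes, in 14 RefSeq windows (assembly GRCh38.p14) of which the 250 bases before the start were searched on both strands. FASN had no entry. The sterol regulatory element TCACNCCA was in 0 of the 14 windows and in 3.20% of all 35116 windows, and the E-box CACGTG was in 0 of 14 and in 6.345% of all. The CCAAT box (CCAAT or its complement ATTGG) was in 6 of the 14 windows, which belong to ACACA, ACLY, ACSS2 and SCD, and in 32.01% of all. Both ACLY windows are among the 6, and they overlap and share the same matches, so these letters are counted more than once. A match describes letters in this window only, and its absence says nothing of a factor. The following stretches lie outside annotated exons and belong to the 2 genes with the largest rise under TGF-β1 (SCD and ACLY), to the elongase that fell (ELOVL6) and to the regulator (SREBF1). They are written 5′ to 3′ on the strand of the gene, with CCAAT or ATTGG in capitals, and their coordinates are chr10:100346983-100347123 (plus strand), chr17:41919023-41919272 (minus strand), chr4:110198677-110198841 (minus strand) and chr17:17837003-17837236 (minus strand).
SCD: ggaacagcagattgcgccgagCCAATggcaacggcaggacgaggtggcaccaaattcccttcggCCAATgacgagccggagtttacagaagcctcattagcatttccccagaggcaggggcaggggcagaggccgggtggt
ACLY: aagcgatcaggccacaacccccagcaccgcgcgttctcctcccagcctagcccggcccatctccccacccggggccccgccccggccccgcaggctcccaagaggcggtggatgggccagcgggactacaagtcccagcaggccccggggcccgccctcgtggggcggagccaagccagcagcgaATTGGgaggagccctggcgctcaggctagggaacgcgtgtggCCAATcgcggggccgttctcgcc
ELOVL6: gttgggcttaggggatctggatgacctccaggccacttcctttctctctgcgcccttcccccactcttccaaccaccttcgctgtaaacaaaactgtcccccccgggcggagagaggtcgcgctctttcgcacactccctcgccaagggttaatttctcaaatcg
SREBF1: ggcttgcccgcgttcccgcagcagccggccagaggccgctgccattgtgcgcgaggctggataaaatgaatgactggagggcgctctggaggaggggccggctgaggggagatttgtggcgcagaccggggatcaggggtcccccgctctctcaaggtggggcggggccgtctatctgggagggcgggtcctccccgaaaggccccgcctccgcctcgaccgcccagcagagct

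Libraries held 25877008 to 35132582 counts, and values per library are CPM, the counts relative to the TMM-scaled library size. NAT10 itself stood at 62.9, 68.8 and 69.9 CPM in con and at 67.8, 65.6 and 67.5 in TGFB. Its level was 19.5, 18.5 and 17.9 CPM in SiNAT10 and 19.2, 15.8 and 20.7 in SiNAT10_TGFB, below every library without siRNA, and the log2 fold change of SiNAT10 against con was -1.85 (SE 0.087, adjusted p = 5.10e-14). Of 10 stellate and mesenchymal markers, 5 were tested, and LRAT and DCN were at 0 in all 12 libraries. The summed level of that list was 4298 to 4525 CPM in con, 8749 to 9357 in TGFB, 1737 to 1820 in SiNAT10 and 2155 to 2443 in SiNAT10_TGFB. COL1A1 was the largest part in each group, with means of 3041, 7550, 880 and 1364 CPM in that order, and VIM was next. Of 10 hepatocyte markers 1 was tested (SERPINA1, mean 17.3 CPM in con). The list summed to 13.7 to 28.6 CPM over all libraries, and TTR and FGB were at 0 in each. The 5 adipocyte markers summed to at most 0.533 CPM with ADIPOQ at 0. The 5 endothelial markers summed to at most 2.44 CPM and the 6 macrophage markers to at most 8.78. The 5 cholangiocyte markers summed to 40.6 to 73.9 CPM, highest in SiNAT10 (66.2 to 73.9). SOX9 was the largest part of the cholangiocyte sum, with means of 41.5 CPM in con and 66.2 in SiNAT10. The part of these marker levels in the results was not tested.

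On the length-scaled FPKM scale, the only one on which levels of the 10 genes are set against each other here, ACLY was the highest in untreated cells with 126 ± 4.50 FPKM (mean ± SD, n = 3). The marker sums above are in CPM, which is not scaled by length. SCD followed with 76.4 ± 4.31 and FASN with 50.4 ± 5.36. A middle tier held FADS1 at 19.9 ± 0.433, ACACA at 16.9 ± 0.629 and FADS2 at 12.6 ± 1.19 FPKM. The lowest were SREBF1 at 9.50 ± 0.278, ME1 at 7.38 ± 0.139, ACSS2 at 6.88 ± 0.687 and ELOVL6 at 5.92 ± 0.102 FPKM. In con the neighbours ME1 and ACSS2 overlapped in their ranges, and the other neighbours in this order did not. ACLY, SCD and FASN kept this order at the top in all 4 groups, and ELOVL6 was last, at 4.42 ± 0.0392 FPKM in TGFB, 2.68 ± 0.282 in SiNAT10 and 2.28 ± 0.212 in SiNAT10_TGFB. Lower places moved, as SREBF1 went from the 7th place in con to 9th in SiNAT10 (4.04 ± 0.757 FPKM), while ACSS2 went from 9th to 6th at 6.78 ± 0.626 FPKM. FASN (17.0 ± 3.02) and FADS1 (14.04 ± 0.450) overlapped in SiNAT10.

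**Figure D1:**
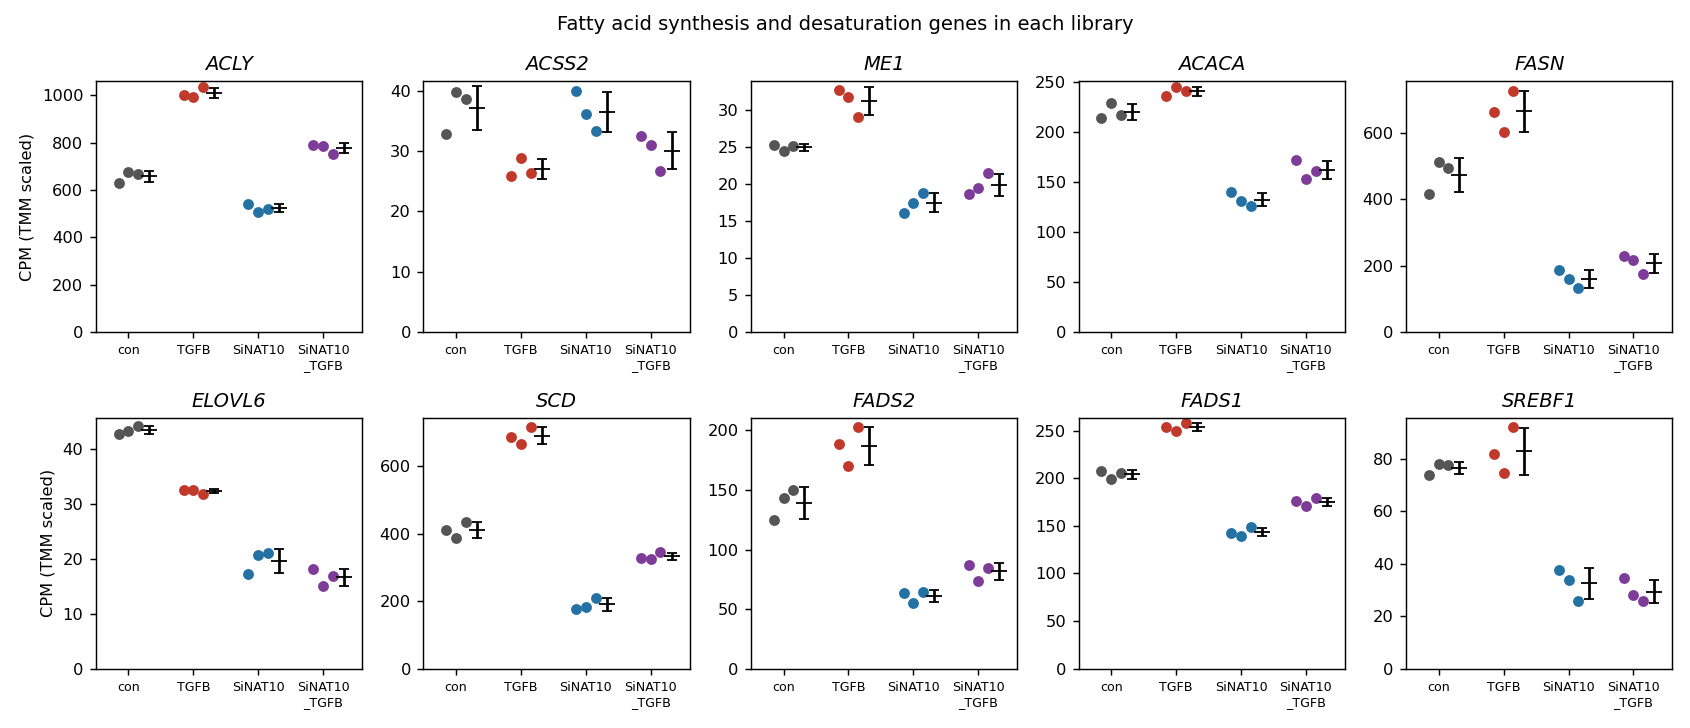
Level of each of the 10 genes in every library, in TMM-scaled CPM on linear axes that start at 0, with 1 panel per gene and 1 color per group. Points are libraries and the black bar beside them is the mean with its SD (n = 3). SCD lies between 387 and 434 CPM in con, 667 and 716 in TGFB, 177 and 210.3 in SiNAT10 and 325 and 345 in SiNAT10_TGFB.

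The first comparison asks what TGF-β1, a fibrogenic cytokine that activates stellate cells, did to these genes in cells without siRNA. Of the 10 genes 6 rose and 2 fell at an adjusted p under 0.05, where 24.1% of all 18560 genes tested were called, 11.9% higher and 12.2% lower. SCD rose most, 1.68-fold, followed by ACLY (1.54-fold), FASN (1.40-fold), FADS2 (1.34-fold), ME1 (1.25-fold) and FADS1 (1.24-fold). ACSS2 fell by 27.2% and ELOVL6 fell by 25.5%, while ACACA and SREBF1 did not pass the test. The median log2 fold change of the 10 genes was 0.32, against -0.01 over all genes.

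The second asks what the NAT10 siRNA did in cells without TGF-β1. Here 9 of the 10 genes fell, where 52.8% of all genes were called, 26.4% in each direction. FASN fell most, 2.96-fold, and SREBF1 (2.35-fold), FADS2 (2.28-fold), ELOVL6 (2.22-fold) and SCD (2.16-fold) followed, an order that turned when a trend with the GC content of transcripts was removed (ELOVL6, SCD and FASN then led, with the values given beside GC content). ACACA (1.66-fold), ME1 (1.43-fold), FADS1 (1.42-fold) and ACLY (1.26-fold) fell less, and ACSS2 did not pass the test. The median log2 fold change of the 10 genes was -0.92, against 0.02 over all genes.

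In cells under TGF-β1 the siRNA comparison (SiNAT10_TGFB against TGFB) gave lower levels for 9 of the 10 genes, again all but ACSS2, where 53.1% of all genes were called, 26.3% higher and 26.8% lower. FASN was 3.22-fold lower, SREBF1 2.82-fold, FADS2 2.29-fold, SCD 2.08-fold, ELOVL6 1.94-fold, ME1 1.57-fold, ACACA 1.49-fold, FADS1 1.45-fold and ACLY 1.30-fold, and this order turned too with the GC trend removed. The median log2 fold change was -0.80, against 0.01 over all genes. This comparison and the one without TGF-β1 share no libraries.

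Within siRNA-transfected cells, TGF-β1 (SiNAT10_TGFB against SiNAT10) was followed by higher levels of 6 of the 10 genes, where 11.1% of all genes were called, 5.92% higher and 5.15% lower. SCD was 1.75-fold higher, ACLY 1.49-fold, FADS2 1.34-fold, FASN 1.29-fold, ACACA 1.22-fold and FADS1 1.22-fold. The median log2 fold change of the 10 genes was 0.29, against 0.00 over all genes. Both comparisons with TGF-β1 and both with siRNA draw on the same 4 groups, so each group enters 2 of them and the 4 sets of values are not independent.

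**Figure D2:**
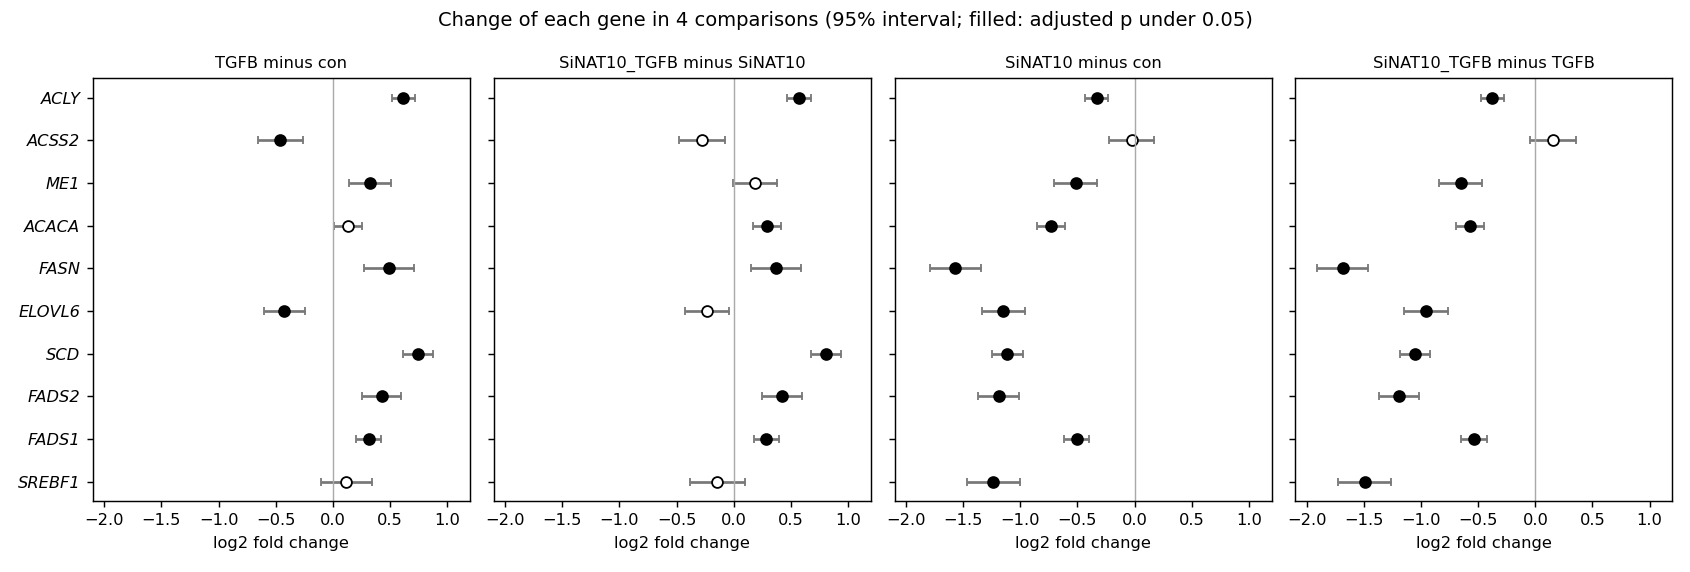
Log2 fold change of each gene in the 4 pairwise comparisons, with its 95% interval. Filled points passed an adjusted p of 0.05 and open points did not: 8 are filled for TGFB minus con, 6 for SiNAT10_TGFB minus SiNAT10, and 9 in each siRNA comparison, where ACSS2 is the open one.

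ACLY, which supplies acetyl-CoA from citrate, stood at 631, 676 and 666 CPM in con and at 1003, 992 and 1034 in TGFB, and at 541, 507 and 518 in SiNAT10 and 790.0, 787 and 753 in SiNAT10_TGFB. The 4 groups did not overlap, and the libraries with both treatments lay above con but below TGFB. The log2 fold change was 0.62 (SE 0.049, adjusted p = 9.68e-10) with TGF-β1 and -0.33 (SE 0.049, adjusted p = 4.88e-06) with siRNA. Under TGF-β1 the siRNA gave -0.38 (adjusted p = 7.27e-07), and in transfected cells TGF-β1 gave 0.57 (adjusted p = 8.41e-09).

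ACSS2, the other source of acetyl-CoA, went the opposite way under TGF-β1. It stood at 32.9, 39.9 and 38.7 CPM in con and 25.8, 28.9 and 26.4 in TGFB, with no overlap, and its log2 fold change was -0.46 (SE 0.096, adjusted p = 0.000857). SiNAT10 libraries held 39.9, 36.2 and 33.3 CPM, overlapping con, and SiNAT10_TGFB libraries 32.5, 31.1 and 26.7. With siRNA alone the difference was -0.03 with a 95% interval from -0.22 to 0.17, and under TGF-β1 it was 0.15 with an interval from -0.05 to 0.35, so neither passed the test. In transfected cells TGF-β1 gave -0.28 (adjusted p = 0.0664). ACSS2 was the one member that no siRNA comparison called lower under any alternative tried.

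ME1 stood at 25.4, 24.4 and 25.1 CPM in con and at 32.7, 31.8 and 29.1 in TGFB, a log2 difference of 0.32 (SE 0.088, adjusted p = 0.00854). That call was lost without TGFB replicate 1 (0.28, adjusted p = 0.0555) and with scaling to library size alone (0.19, adjusted p = 0.114). SiNAT10 libraries held 16.2, 17.5 and 18.8 CPM and SiNAT10_TGFB libraries 18.6, 19.4 and 21.5, all below con. The siRNA changes were -0.51 (adjusted p = 4.71e-05) without and -0.65 (adjusted p = 1.65e-06) with TGF-β1. In transfected cells the groups overlapped, and the difference with TGF-β1, 0.18 (adjusted p = 0.255), did not pass.

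Both genes of palmitate synthesis were lower with siRNA, FASN more than ACACA. FASN stood at 416, 511 and 493 CPM in con and at 663, 603 and 726 in TGFB, with no overlap (log2 0.49, SE 0.105, adjusted p = 0.00113). Transfected cells held 187, 159.7 and 131 CPM in SiNAT10 and 228, 217 and 174 in SiNAT10_TGFB, so that the highest of these 6 libraries was still under the lowest con library. The siRNA changes were -1.57 (SE 0.108, adjusted p = 3.00e-11) and, under TGF-β1, -1.69 (SE 0.108, adjusted p = 6.81e-12). The 2 transfected groups overlapped, and the difference of 0.37 between them (SE 0.107, adjusted p = 0.0247) was lost in 9 of 25 alternatives, among them DESeq2 (adjusted p = 0.111) and the fits without SiNAT10 replicate 2 (0.37), SiNAT10 replicate 3 (0.25), SiNAT10_TGFB replicate 1 (0.29) and SiNAT10_TGFB replicate 2 (0.33).

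ACACA stood at 214, 229 and 217 CPM in con, 236, 245 and 241 in TGFB, 139.6, 132 and 126 in SiNAT10 and 172, 153 and 161 in SiNAT10_TGFB. The groups did not overlap, but the step from con to TGFB was small, 0.13 (SE 0.059, adjusted p = 0.116). It passed when only con and TGFB were fitted (0.13, adjusted p = 0.0364) and was -0.00428 with scaling to library size alone. The siRNA changes were -0.73 (SE 0.060, adjusted p = 5.16e-10) and -0.57 (SE 0.059, adjusted p = 2.47e-08), and in transfected cells TGF-β1 gave 0.29 (SE 0.060, adjusted p = 0.00151).

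ELOVL6 and SCD, which act one after the other on the same chain, moved in opposite directions with TGF-β1 and in the same direction with siRNA. SCD stood at 412, 387 and 434 CPM in con, 687, 667 and 716 in TGFB, 177, 183 and 210.3 in SiNAT10 and 327, 325 and 345 in SiNAT10_TGFB. No 2 groups overlapped, and the libraries with both treatments lay between SiNAT10 and con. Its TGF-β1 change was 0.75 (SE 0.063, adjusted p = 2.73e-09) without and 0.81 (SE 0.064, adjusted p = 2.12e-09) with siRNA, and its siRNA change was -1.11 (SE 0.064, adjusted p = 1.42e-12) without and -1.05 (SE 0.064, adjusted p = 2.57e-12) with TGF-β1.

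ELOVL6 held 42.6, 43.3 and 44.2 CPM in con and 32.5, 32.5 and 31.8 in TGFB, and the difference was -0.43 (SE 0.087, adjusted p = 0.000709). SiNAT10 libraries held 17.2, 20.6 and 20.9 CPM and SiNAT10_TGFB libraries 18.1, 15.01 and 16.8, all under TGFB. The siRNA changes were -1.15 (SE 0.090, adjusted p = 2.57e-10) and -0.96 (SE 0.092, adjusted p = 6.64e-09). The 2 transfected groups overlapped, and the difference with TGF-β1 of -0.23 (adjusted p = 0.128) did not pass. It passed with scaling to library size alone (-0.29) and without SiNAT10 replicate 1 (-0.32).

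FADS2 and FADS1 are neighbours on chromosome 11 (61792980 to 61867354 on the plus strand and 61799625 to 61829318 on the minus strand, hg38) and share 490 exon bases on opposite strands, 4.44% of the exon bases of FADS2 and 4.79% of those of FADS1. The strand setting of the counting was not known from the sources used here, so reads from that stretch cannot be assigned with certainty. FADS2 stood at 124, 144 and 149.7 CPM in con, 188, 170.2 and 203 in TGFB, 63.8, 55.1 and 64.0 in SiNAT10 and 87.1, 73.6 and 84.2 in SiNAT10_TGFB, with no overlap between groups. Its TGF-β1 changes were 0.43 (SE 0.082, adjusted p = 0.000365) and, with siRNA, 0.42 (SE 0.085, adjusted p = 0.00122), and its siRNA changes were -1.19 (SE 0.085, adjusted p = 4.95e-11) and, with TGF-β1, -1.20 (SE 0.084, adjusted p = 3.27e-11).

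FADS1 was tighter between libraries, at 208, 199 and 205 CPM in con, 254, 250.3 and 258 in TGFB, 143, 139.6 and 148 in SiNAT10 and 176, 171 and 179 in SiNAT10_TGFB, again with no overlap. The TGF-β1 changes were 0.31 (SE 0.053, adjusted p = 8.34e-05) and 0.29 (SE 0.054, adjusted p = 0.000586). The siRNA changes were -0.51 (SE 0.054, adjusted p = 3.49e-08) and -0.54 (SE 0.053, adjusted p = 1.26e-08). Thus the 2 desaturases differed little in their TGF-β1 change, while the siRNA change of FADS2 was the larger, a difference between genes that was not tested.

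SREBF1, the regulator, was called lower with siRNA and was not called with TGF-β1. It stood at 73.9, 77.9 and 77.7 CPM in con and at 81.9, 74.6 and 92.3 in TGFB, and these groups overlapped (0.12, SE 0.108, adjusted p = 0.488, 95% interval -0.11 to 0.34, and -0.02 with scaling to library size alone). SiNAT10 libraries held 37.6, 34.0 and 25.8 CPM and SiNAT10_TGFB libraries 34.4, 27.9 and 25.9, all under every library without siRNA. The siRNA changes were -1.24 (SE 0.112, adjusted p = 3.06e-09) and -1.495 (SE 0.113, adjusted p = 1.30e-10), and TGF-β1 in transfected cells gave -0.14 (adjusted p = 0.549). SREBF1 shares 6.92% of its exon bases with RAI1 on the opposite strand.

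Transcript GC content moved with the siRNA comparisons and is given beside them. Among genes with a mean of at least 50 counts, the median log2 fold change of SiNAT10 against con was 0.17 for transcripts of up to 38% GC (1064 genes) and -0.54 above 62% (1127 genes), and 0.17 and -0.58 for SiNAT10_TGFB against TGFB. The members ran from ME1 (39.5% GC), ELOVL6 (41.2%), SCD (47.1%), ACACA (48.7%), FADS1 (50.1%), ACLY (52.15%) and ACSS2 (54.55%) to FADS2 (58.6%), SREBF1 (62.8%) and FASN (65.3%). With a smooth GC trend removed from each library, FASN was at -1.05 and -1.13 in the 2 siRNA comparisons in place of -1.57 and -1.69, SREBF1 at -0.75 and -0.99 in place of -1.24 and -1.495, and FADS2 at -0.84 and -0.86 in place of -1.19 and -1.20. SCD (-1.31 and -1.21), ELOVL6 (-1.35 and -1.15), ACACA (-0.91 and -0.72), ME1 (-0.73 and -0.85) and FADS1 (-0.66 and -0.66) were lower than before, and ACLY moved to -0.41 and -0.44. FASN was thus no longer the gene with the strongest fall: ELOVL6 and SCD were lower than FASN in both comparisons by this estimate, and the differences between genes were not tested. All 9 genes that fell were still called lower in both comparisons, and ACSS2 was called higher under TGF-β1 (0.23, adjusted p = 0.0194). The 3 SiNAT10 libraries differed among themselves in the same respect: genes above 62% GC deviated from the group mean by a median of 0.16 in replicate 1 and -0.19 in replicate 3, and FASN and SREBF1 had coefficients of variation of 17.5% and 18.6% there. Values and counts of the other gene lists below are as counted unless stated, so their siRNA changes still hold the GC trend.

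**Figure D3:**
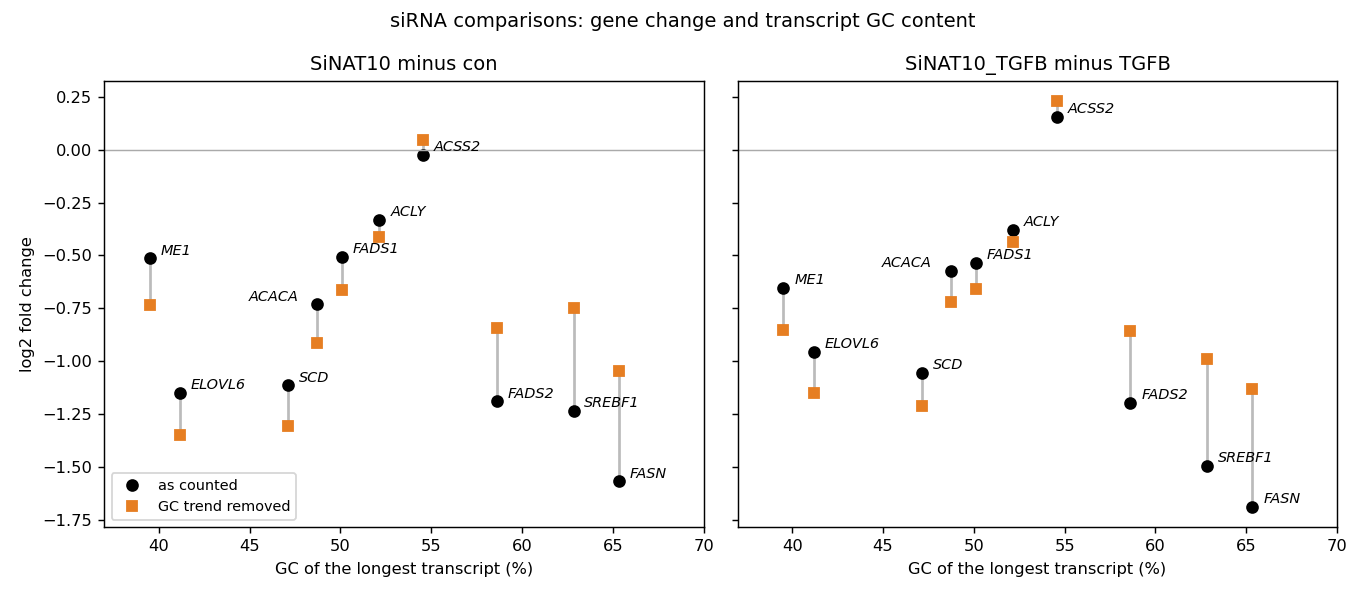
Log2 fold change of the 10 genes in both siRNA comparisons (vertical axis) against the GC content of the longest transcript in percent (horizontal axis), as counted (black circles) and after removal of the GC trend from each library (orange squares). FASN moves from -1.57 to -1.05 and ELOVL6 from -1.15 to -1.35 in SiNAT10 minus con, and the 9 genes called lower stay below 0, while ACSS2 moves from -0.03 to 0.0459.

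The interaction asks whether the TGF-β1 change differed between transfected and untransfected cells. It was called for 0 of the 10 genes by edgeR, where 3.85% of all genes were called, 1.94% higher and 1.91% lower, and 0 had an unadjusted p under 0.05. DESeq2 and limma voom gave 0 at both thresholds too. The 95% intervals limit how much the changes could differ on the log2 scale: from -0.13 to 0.24 for SCD, -0.19 to 0.10 for ACLY, -0.18 to 0.13 for FADS1, -0.25 to 0.24 for FADS2 and -0.01 to 0.33 for ACACA. They were wider for FASN (-0.43 to 0.19), ELOVL6 (-0.07 to 0.46), ACSS2 (-0.10 to 0.46), ME1 (-0.40 to 0.13) and SREBF1 (-0.59 to 0.07). The missed threshold does not show that the changes were alike.

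**Figure D4:**
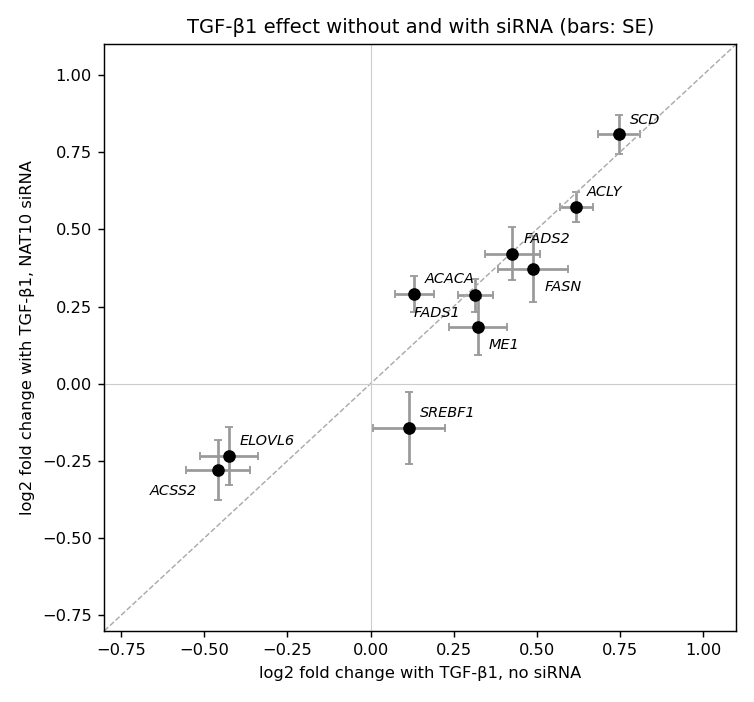
TGF-β1 change of each gene in untransfected cells (horizontal axis, TGFB minus con) and in transfected cells (vertical axis, SiNAT10_TGFB minus SiNAT10), both as log2 fold change with SE bars. The dashed line marks equal change: SCD lies at 0.75 and 0.81, ACLY at 0.62 and 0.57, and ACSS2 and ELOVL6 lie below 0 on both axes.

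Ratios of FPKM within a library show how the members shifted against each other. These pairs were chosen after their values were seen and are given as a description. ELOVL6 to SCD was 0.0760, 0.0823 and 0.0748 in con and 0.0714, 0.0829 and 0.0732 in SiNAT10, but 0.0348, 0.0358 and 0.0327 in TGFB and 0.0406, 0.0340 and 0.0357 in SiNAT10_TGFB. Every library with TGF-β1 was thus below every library without it, and the siRNA groups lay beside their untransfected counterparts. ACSS2 to ACLY was 0.0547 ± 0.00358 in con, 0.0260 ± 0.00192 in TGFB, 0.0677 ± 0.00479 in SiNAT10 and 0.0375 ± 0.00288 in SiNAT10_TGFB. FADS1 to FADS2 was 1.59 ± 0.183 in con and 1.47 ± 0.108 in TGFB, against 2.55 ± 0.165 in SiNAT10 and 2.32 ± 0.161 in SiNAT10_TGFB. The 2 transcripts of that last pair differ in GC content, and with the GC trend removed their siRNA changes were -0.66 and -0.84, closer to each other than the -0.51 and -1.19 as counted.

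**Figure D5:**
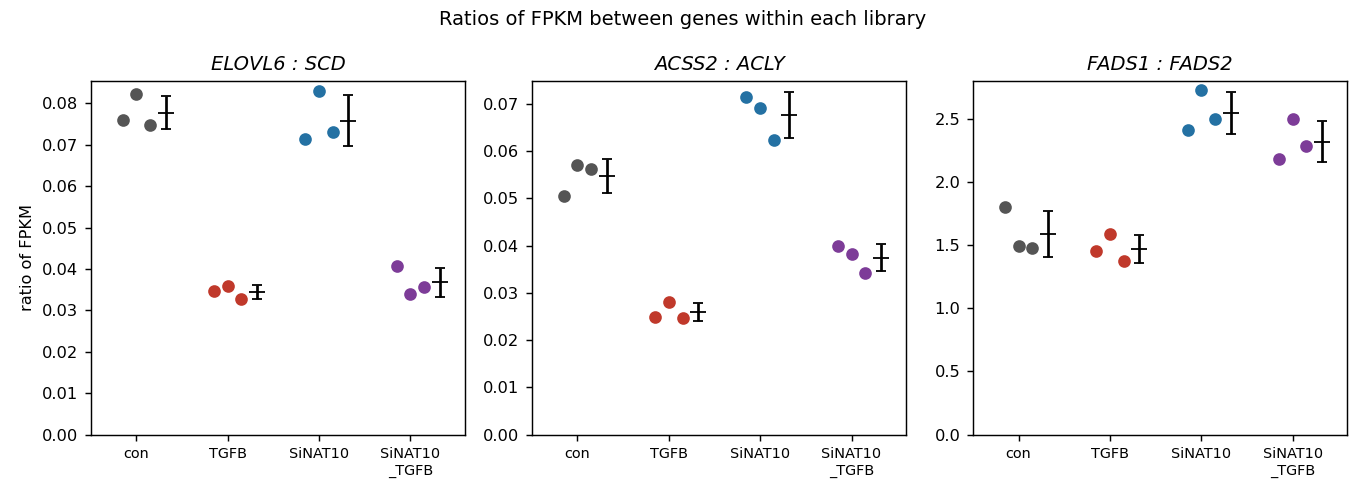
Ratios of FPKM for 3 pairs of genes in every library, on linear axes that start at 0, with the mean and SD beside the points (n = 3). ELOVL6 to SCD is about 0.0777 in con and 0.0344 in TGFB, ACSS2 to ACLY 0.0547 and 0.0260, and FADS1 to FADS2 is 1.59 in con and 2.55 in SiNAT10.

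Of 11 other fatty acid synthesis genes 9 were tested. With TGF-β1 4 were called lower and the other 5 were not called, with a median of -0.14, where 24.1% of all genes were called. The 4 included MLYCD, malonyl-CoA decarboxylase (-0.47, SE 0.145, adjusted p = 0.0205) and ACACB, the mitochondrial carboxylase (-0.31, SE 0.102, adjusted p = 0.0265). MLYCD removes malonyl-CoA and ACACB makes it, so the count gives no direction of synthesis. With siRNA 1 was higher and 4 lower without TGF-β1 (52.8% of all genes called), and 3 were higher and 4 lower with it (53.1%). IDH1, the cytosolic NADP-dependent isocitrate dehydrogenase, changed by -1.98 (SE 0.077, adjusted p = 2.03e-15) and -1.53 (SE 0.075, adjusted p = 7.22e-14), ACACB by -1.15 and -0.94, and MID1IP1, an activator of acetyl-CoA carboxylase, by -0.87 and -1.02. IDH1 was the only gene of that list with a called interaction (0.45, adjusted p = 0.0151).

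Of 15 other elongases, desaturases and chain-elongation enzymes 14 were tested. With TGF-β1 1 rose and 5 fell, where 24.1% of all genes were called. FADS3 rose by 0.40 (SE 0.074, adjusted p = 0.000231), ELOVL2 changed by -0.79 (SE 0.085, adjusted p = 1.50e-07) and SCD5, the second stearoyl-CoA desaturase, by -0.53 (SE 0.094, adjusted p = 0.000152). SCD and SCD5 thus moved apart, and the FPKM ratio of SCD to SCD5 was 9.71 ± 1.102 in con and 23.6 ± 2.11 in TGFB. With siRNA 4 rose and 8 fell without TGF-β1 (52.8% of all genes called), and 3 rose and 6 fell with it (53.1%). Among those that fell were ELOVL2 (-1.03 and -1.02), ELOVL5 (-0.49 and -0.54) and FADS3 (-0.66 and -1.20). FADS3 had a called interaction of -0.54 (SE 0.107, adjusted p = 0.00326).

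Among 14 genes of SREBP processing and related regulators, 4 rose and 1 fell with TGF-β1, where 24.1% of all genes were called. The count became 2 and 2 with scaling to library size alone. INSIG1, which holds SCAP in the endoplasmic reticulum and is itself an SREBP target, rose by 0.67 (SE 0.069, adjusted p = 8.40e-08), MLXIP, a glucose-sensing partner of MLX, by 0.75 (SE 0.086, adjusted p = 3.44e-07) and SREBF2, which encodes the sterol-responsive SREBP-2, by 0.28 (SE 0.068, adjusted p = 0.00402). The same 3 genes were the ones called higher in transfected cells, by 0.78, 0.42 and 0.29. With siRNA 3 of the 14 rose and 7 fell without TGF-β1 (52.8% of all genes called), and 3 rose and 6 fell with it (53.1%). SCAP changed by -0.75 (SE 0.090, adjusted p = 2.35e-07) and -0.76 (SE 0.090, adjusted p = 1.84e-07), MLXIP by -1.41 and -1.74, and NR1H2, which encodes the liver X receptor beta, by 0.76 and 0.61. These values are as counted, with the GC trend not removed.

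Cholesterol synthesis and uptake genes, most of them SREBP-2 targets, were called in both directions. Of 23 genes 15 rose and 3 fell with TGF-β1 (median 0.29), where 24.1% of all genes were called. SQLE, squalene epoxidase, was at 0.82 (SE 0.063, adjusted p = 6.08e-10), STARD4, a sterol carrier, at 1.03 and HMGCS1, which makes HMG-CoA, at 0.77. In transfected cells TGF-β1 raised 13 and lowered 1 (median 0.37, 11.1% of all genes called), with SQLE at 0.83 and HMGCS1 at 0.87. With siRNA 1 rose and 15 fell (median -0.37, 52.8% of all genes called), and under TGF-β1 13 fell and 10 were not called (median -0.35, 53.1%). HMGCS1 changed by -1.01 with siRNA and by -0.90 with siRNA under TGF-β1. Of 7 targets of the liver X receptor, a factor that also induces SREBF1, 1 rose and 3 fell with TGF-β1 (24.1% of all genes called). ABCA1 rose by 0.60 and MYLIP was at -1.01. With siRNA 2 rose and 1 fell (52.8% of all genes called), and with siRNA under TGF-β1 4 rose and 2 fell (53.1%). In these 2 siRNA comparisons MYLIP, which marks the LDL receptor for degradation, was at 1.01 and 1.4996, and LPCAT3 at -0.45 and -0.46. ABCA1 rose by 0.59 with siRNA in cells without TGF-β1.

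The genes whose pattern over the 12 libraries was most like the mean standardised log2 CPM of the 10 members were KIRREL3 (Pearson r = 0.996), ATXN7L3 (0.996), MEG3 (0.995), FLNA (0.995) and SUN2 (0.995), among genes with a mean of at least 50 counts. These values describe 12 libraries that share 4 treatments, and none of the 5 genes is on a list of lipid genes used here. Of the members FASN (0.991), ACACA (0.990) and FADS2 (0.989) were closest to the mean of the members. SCD (0.923), ELOVL6 (0.830) and ACLY (0.718) were less close, and ACSS2 was at -0.31. Each member is itself part of that mean, so its value is not comparable with those of the 5 genes above.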

How the data were processed

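RNA was measured in 12 LX-2 libraries. Gene counts and FPKM values per library were deposited by the authors in 2 tables of the same 58735 genes, whose identifiers and coordinates all match GENCODE 29. Per the submitters' processing notes, fastp and HISAT2 2.2.1 were used with the hg38 build. The sources used here do not give the counting tool, the strand setting or how RNA was selected. The deposited FPKM equal the counts per length times 1 factor per library (0.933 to 1.09) and served for levels between genes and as an alternative.

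Counts were analysed with edgeR 4.0.16 in R 4.3.3: filterByExpr kept 18560 genes and at least 99.88% of the counts, TMM factors were 0.922 to 1.069, and 1 quasi-likelihood fit of 4 group means gave 4 pairwise comparisons and the interaction. P-values were adjusted by Benjamini-Hochberg over all genes tested and called under 0.05. The SE is the absolute log2 fold change divided by the square root of F. Each library's 3 counts correspond to 0.0871 to 0.115 CPM, and depth covers counting error only. The members and gene lists were chosen with earlier results of these data known. All members are named. Of each other list at most 3 genes per comparison are named, those with the smallest p among called genes with a mean of at least 50 counts. HADHA, PLIN3 and PLIN4 were added outside this rule, by mean CPM only. Alternatives were other scalings and filters, DESeq2 1.42.0, limma 3.58.1 (voom, and log2 FPKM plus 1 or 0.1), a GC trend (spline with 5 degrees of freedom over the longest transcript), a replicate block, and leaving out each library. Within groups no 2 libraries agreed within sampling noise (chi-square per degree of freedom 4.55 to 25.7).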

Additional observations from a re-analysis of the deposited data

How the results depend on the processing

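Over 25 alternatives (24 for the interaction), 35 of the 50 member changes kept their direction and their side of the threshold in all, and the 9 genes lower with siRNA were called in each fit of both siRNA comparisons. Members called were 7 to 8 for TGFB against con, 9 and 9 for the siRNA comparisons, 5 to 7 for SiNAT10_TGFB against SiNAT10 and 0 for the interaction when 1 library was left out. Other settings gave 7 to 9, 9, 9 to 10, 4 to 8 and 0. All sign changes were in values not called. With scaling to library size alone ACACA was at -0.00428 and SREBF1 at -0.0195 for TGFB against con, ACSS2 at 0.0306 for SiNAT10 against con, and the interaction was 0.0291 for ACLY, 0.0702 for FADS2 and 0.0467 for FADS1. That scaling moved the median of all genes by -0.14 for TGFB against con and by 0.13 for SiNAT10_TGFB against TGFB. Of the genes called, 23.4% were higher in place of 49.5% in the first and 61.3% in place of 49.6% in the second. ACSS2 in SiNAT10 against con was 0.0100 with upper quartile scaling, 0.0459 with the GC trend removed and -0.109 to 0.0340 with 1 library left out. The interaction of FADS2 was 0.0119 without a count filter and -0.0725 to 0.0703 with 1 library left out, that of FASN -0.241 to 0.0143, and that of FADS1 0.00297 with the GC trend removed. The number of all genes with a called interaction was 714, 424 with unfiltered FPKM (more genes tested, another test) and 1466 with the GC trend removed, and the cause was not tested. Further losses were FASN for TGFB against con (0.48, adjusted p = 0.0633) and FADS2 for SiNAT10_TGFB against SiNAT10 (0.37, adjusted p = 0.0531), both with unfiltered FPKM. Gains were ACSS2 for SiNAT10_TGFB against TGFB with library size alone (0.28, adjusted p = 0.0150), ACSS2 for SiNAT10_TGFB against SiNAT10 in 5 alternatives and ME1 there with the GC trend removed (0.23, adjusted p = 0.0466).

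No pairing of libraries by replicate number was seen, which does not exclude it. Of 18 pairs with the same number, correlations ran from -0.34 to 0.22 and 1 was over 0.1. By a strict criterion, 0 of 12 libraries correlated best with their own number in every other group. The replicate block gave 8, 9, 9, 6 and 0 called members and changed no member's call, and over all genes it gave 4113, 9459, 9579, 1806 and 591 calls.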

Other observations

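Genes that use or break down fatty acids make up 3 further lists. Of 15 glycerolipid and lipid droplet genes 1 rose and 6 fell with TGF-β1, where 24.1% of all genes were called. GPAM, the first acyltransferase of glycerolipid synthesis, rose by 1.24 (SE 0.072, adjusted p = 3.24e-12), while DGAT2, which makes triglyceride, changed by -1.78 (SE 0.154, adjusted p = 4.19e-09) and LPIN2, a phosphatidate phosphatase, by -0.76. In transfected cells TGF-β1 gave 0.98 for GPAM and -1.10 for DGAT2. With siRNA 2 of the 15 rose and 6 fell (52.8% of all genes called), and under TGF-β1 5 rose and 6 fell (53.1%). With the GC trend removed these counts were 6 and 6, and 7 and 3. LPIN3, another phosphatidate phosphatase, changed by -0.82 (SE 0.109, adjusted p = 1.13e-06) without TGF-β1, and LIPE, hormone-sensitive lipase, by -0.97 (SE 0.128, adjusted p = 9.17e-07) under it. PLIN2, a coat protein of lipid droplets, rose with siRNA by 1.18 (SE 0.119, adjusted p = 1.66e-08) and, under TGF-β1, by 1.23 (SE 0.124, adjusted p = 1.51e-08), in the comparisons in which FASN and SCD fell. PLIN3, on the same list, had means of 125 CPM in con, 130 in SiNAT10, 99.8 in TGFB and 130 in SiNAT10_TGFB. PLIN4 had means of 1.66, 0.912, 1.42 and 0.853 CPM in that order. LPIN1 and LPIN2 had called interactions of 0.42 (adjusted p = 0.00788) and 0.50 (adjusted p = 0.000948).

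Of 24 genes of fatty acid uptake and oxidation 21 were tested. With TGF-β1 1 rose, 3 fell and 17 were not called, where 24.1% of all genes were called. In transfected cells TGF-β1 gave 0 higher and 0 lower, where 11.1% of all genes were called. With siRNA 4 rose and 10 fell (52.8% of all genes called), and under TGF-β1 7 rose and 8 fell (53.1%). CPT1A, which commits fatty acids to mitochondrial oxidation, changed by -1.63 (SE 0.084, adjusted p = 2.02e-13) and -1.38 (SE 0.085, adjusted p = 3.20e-12), and with TGF-β1 alone by -0.42. HADHB, a subunit of the trifunctional protein, changed by -0.71 and -0.66. Its partner subunit HADHA was not lower, with means of 228 CPM in con, 250 in SiNAT10, 221 in TGFB and 251 in SiNAT10_TGFB. Among the genes that rose was SLC25A20, by 0.90 (SE 0.097, adjusted p = 4.97e-08) with siRNA in cells without TGF-β1. Of 5 acyl-CoA synthetases 4 were tested: ACSL4 and ACSL3 rose with TGF-β1 by 0.44 and 0.29, and ACSL5 rose with siRNA by 2.08 (SE 0.192, adjusted p = 3.97e-09) and 1.61 (SE 0.196, adjusted p = 2.69e-07). ACSL3 and ACSL4 fell in both siRNA comparisons, ACSL3 by 0.18 and 0.19 and ACSL4 by 0.18 and 0.33 on the log2 scale. Scaled to library size alone, the list had 1 gene higher and 0 lower with TGF-β1, 1 and 0 with siRNA, and 1 and 1 with siRNA under TGF-β1, and upper quartile scaling also gave 1 and 0 with siRNA.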
